A study of Homo sapiens with 6 samples.

Results

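The genes described here are the eukaryotic translation initiation factors and the kinases of eIF2. They were chosen as rows of the deposited count table whose symbol begins with EIF and a digit, leaving out EIF2AK2 and pseudogene symbols, which end in P or in P and a number. The rule took 56 of 55765 rows. Of these, 52 were genes of the factors or kinases and 4 were antisense or intronic RNAs named after such a gene. The same ending also removed EIF4EBP1, EIF4EBP2 and EIF4EBP3, which are genes of the eIF4E-binding proteins and not pseudogenes, and they are described with the other genes of translation control. A further 51 rows were left out as pseudogenes.

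The cells were OCI-AML2, a human line established from acute myeloid leukaemia, and the labels describe the cultures as single-cell clones. Treated cells received 100 nM MRT199665, an inhibitor of the MARK kinases by the labels, and control cells received vehicle, both for 48 h. Libraries were sequenced from the 3′ ends of messenger RNAs, with 3 libraries per group. Whether the libraries within a group were independent cultures is not stated in the labels, and the p-values rest on library-to-library spread that could be technical. In bulk RNA, fewer cells with a transcript and less of it per cell cannot be told apart. The comparison asked which of these transcripts differed between inhibitor and vehicle.

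Depth was between 9517907 and 11994657 counts with vehicle and between 5871097 and 14308650 with MRT199665, the lowest being MRT199665 replicate 2. A count of 3, the limit that a count of 0 allows, stood for 0.210 to 0.511 counts-per-million (CPM), counting error only. Of the 7 myeloid markers examined, 6 were detected, among them PTPRC, CSF3R and MPO, and CEBPA was listed at 0. The summed level of these genes was 637 to 685 CPM with vehicle and 728 to 784 CPM with MRT199665. The ranges of the sum did not overlap, and its part in the results below was not tested. PTPRC, the largest part of the sum at 350 to 431 CPM, and SPI1 had overlapping groups. Those of CD33, MPO, LYZ and CSF3R did not overlap and were higher with MRT199665. Groups did not overlap for 22.2% of all tested genes. The summed T cell level was 0.417 to 0.422 CPM with vehicle and 0 to 0.349 CPM with MRT199665, with CD2 at 0. CD3D, which made up nearly all of it, held at most 5 counts in any library. The sum of 0 fell in MRT199665 replicate 2, whose limit of 0.511 CPM lay above the vehicle values, so no difference can be read from these ranges. Epithelial markers summed to 27.9 to 61.1 CPM, nearly all CDH1 with KRT18 at 0, with overlapping groups. The libraries differed along a first principal component with 46.75% of the variance that did not separate the treatments. MRT199665 replicate 2 stood at 48.4 and vehicle replicate 1 at 10.6 on it, against -36.8 for vehicle replicate 2.

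Translation of most messenger RNAs starts when the cap-binding complex eIF4F (the cap-binding protein eIF4E, the scaffold eIF4G and the helicase eIF4A) recruits a small ribosomal subunit that carries eIF1, eIF1A, eIF3, eIF5 and the initiator transfer RNA bound to eIF2. After start codon recognition eIF2 leaves with GDP, and eIF2B exchanges it for GTP. Kinases activated by haem lack (HRI, gene EIF2AK1), by unfolded protein in the endoplasmic reticulum (PERK, EIF2AK3) or by amino acid lack (GCN2, EIF2AK4) phosphorylate eIF2 and turn it into an inhibitor of eIF2B. That slows general translation and favours translation of ATF4 messenger RNA. These steps act on proteins and their phosphorylation, which transcript counts do not measure.

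No initiation factor or eIF2 kinase transcript passed the test. A gene was tested when it passed a filter on low counts, and 49 of the 56 rows did. None of the 49 was called higher or lower at a Benjamini-Hochberg adjusted p under 0.05 (edgeR quasi-likelihood test over all 13053 tested genes), while 1.25% of all tested genes were called (0.85% higher and 0.398% lower). DESeq2 and limma-voom also called none of them, against 355 of 12356 and 157 of 13053 genes over the whole table. EdgeR without the low-count filter called 1 of 54 members, EIF2D, against 644 of 28230 genes. An unadjusted p under 0.05 was reached by 5 members (10.2%), against 14.7% of all tested genes. The groups' libraries did not overlap for 9 members (18.4%), 3 higher and 6 lower with MRT199665, against 22.2% of all tested genes. Both shares lay below those of the table as a whole, so neither count sets these genes apart. The median log2 fold change (MRT199665 over vehicle throughout) was 0.013 over the members and 0.0059 over all tested genes, with 25 members positive and 24 negative.

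The data also bound the size of any change. For 25 of the 49 members (51.0%) the 95% interval of the fold change lay within 1.5-fold in either direction, against 37.4% of all tested genes. For the other 24 the interval reached past 1.5-fold, so a change of that size would lie within their error. The 7 members not tested held few counts. EIF3C had 54 counts over the 6 libraries, EIF4E3 had 34 and EIF2S3L had 6, EIF1AX-AS1 had 2 and EIF2B5-IT1 had 1, and EIF4E1B and EIF2B5-AS1 were listed at 0.

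**Figure D1:**
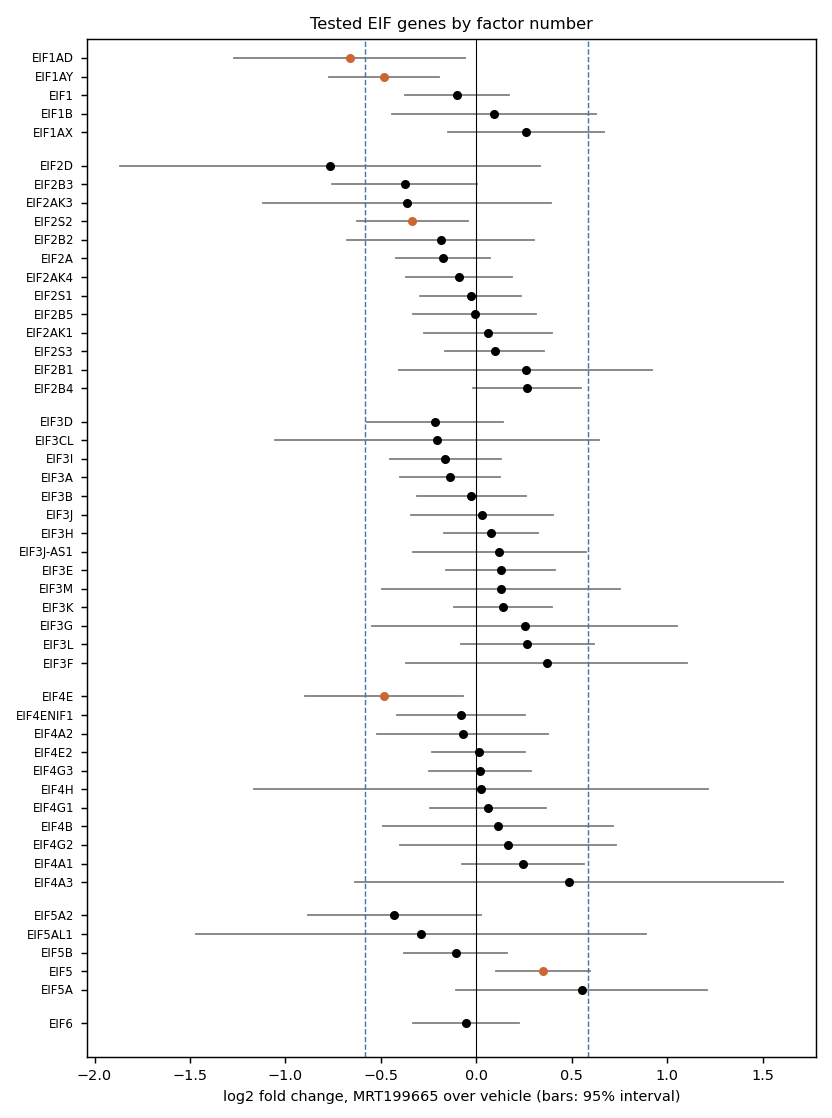
Log2 fold change of each tested EIF gene, MRT199665 over vehicle (x axis), with its 95% interval (bar), grouped by factor number from eIF1 (top) to eIF6. Orange points have an unadjusted p under 0.05, dashed lines mark 1.5-fold in either direction, and none of the 49 genes had an adjusted p under 0.05.

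Promoter sequence is shown because EIF4E is a textbook target of MYC, a transcription factor that binds the E-box CACGTG. The 250 bases before the start of transcription were read from RefSeq (GRCh38.p14) for the 41 tested members with an entry. A CACGTG was found in 10 of them (24.4%), against 7.73% of all 27305 genes with an entry and 11.6% of the 8504 tested genes with an entry. The letters read the same on both strands. Sites of 4 of these 10 members are printed with 12 bases on either side, in the direction of the gene, with the E-box in capitals.
EIF4E, chr4:98929341-98929370, minus strand: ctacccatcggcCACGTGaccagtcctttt
EIF4E, chr4:98929188-98929217, minus strand: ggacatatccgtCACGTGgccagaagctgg
EIF5A2, chr3:170908807-170908836, minus strand: actaatccgcagCACGTGgggttgccaggg
EIF5A2, chr3:170908782-170908811, minus strand: cagggcgctcttCACGTGactgggcggagc
EIF2B3, chr1:44986757-44986786, minus strand: gacagagggacaCACGTGtcgaatgctcct
EIF4A3, chr17:80147232-80147261, minus strand: ccagttccctttCACGTGacgaagagtgcc
The sites in EIF4E began 225 and 72 bases before the start, those in EIF5A2 187 and 162, that in EIF2B3 179 and that in EIF4A3 121. Both EIF4E windows lie within exons annotated by GENCODE 29, as do 12 of the 30 bases of the EIF4A3 window, while those of EIF5A2 and EIF2B3 overlap none. The others with the motif were EIF1B, EIF3F, EIF3K, EIF4B, EIF4G1 and EIF4H. Within exons lay the windows of EIF1B, EIF3F and EIF4B, that of EIF4G1 at 67 bases before the start, and 21 bases of that of EIF3K. That of EIF4H and that of EIF4G1 at 144 bases overlapped none. Some of the promoters read, such as that of EIF4E, lay in annotated exons over all 250 bases. The 10 genes did not share a direction, since 3 had negative and 7 positive log2 fold changes, with a median of 0.076. The 4 printed genes hold all 3 negative ones and, of the 7 positive ones, EIF4A3 alone, so they do not stand for the 10. They also had the largest log2 fold changes of the 10 in either direction. The smallest of the 4 was -0.374 (EIF2B3), and EIF3F came next at 0.368. The core of the response element bound by ATF4 and C/EBP factors, TGATGNAA, was found on neither strand in any of the 41 promoters and in 3.89% of all, and the cAMP response element TGACGTCA in none and in 2.03%. A match is a description of these letters and not of a factor's binding.

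Among the cap-binding factors, EIF4E had the lowest p of the eIF4 genes. Its levels were 44.5, 38.4 and 38.8 CPM in vehicle replicates 1, 2 and 3, and 28.7, 21.6 and 36.1 CPM in MRT199665 replicates 1, 2 and 3. All treated libraries lay below all vehicle libraries, and MRT199665 replicate 3 lay close to vehicle replicate 2. The mean was 28.8 ± 7.22 CPM after MRT199665, against 40.6 ± 3.43 in vehicle (SD, n = 3 libraries each), a log2 fold change of -0.48 ± 0.18 (SE). EIF4E was not called by edgeR (adjusted p = 0.270), nor in any of 15 alternative analyses, where the adjusted p lay between 0.0988 and 0.540. EIF4E2, a related cap-binding protein that acts in translational repression, differed little, at 215 ± 4.22 against 213 ± 14.1 CPM (SD, n = 3 libraries each). Its 95% interval ran from 0.853-fold to 1.19-fold.

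The scaffold genes EIF4G1, EIF4G3 and EIF4G2 (also called DAP5, a homologue without the eIF4E-binding site) had log2 fold changes of 0.06, 0.02 and 0.17. EIF4G2 was at 278, 136 and 191 CPM in vehicle replicates 1, 2 and 3, and at 185, 266 and 228 CPM in MRT199665 replicates 1, 2 and 3. Its groups thus overlapped fully, and the vehicle libraries alone spanned more than the treated ones. The helicase gene EIF4A1 was at 18.5, 20.1 and 20.5 CPM with vehicle and at 21.5, 21.5 and 26.9 CPM with MRT199665. Its groups did not overlap, but the gap between them was narrow, and the log2 fold change of 0.25 ± 0.14 (SE) had an adjusted p of 0.469 with edgeR. The helicase EIF4A2 had a log2 fold change of -0.07. EIF4A3, the helicase of the exon junction complex, was at 27.0, 7.98 and 13.7 CPM with vehicle and at 12.8, 39.6 and 17.9 CPM with MRT199665. The high libraries of EIF4A3 were MRT199665 replicate 2 and vehicle replicate 1, so its log2 fold change of 0.49 carried an SE of 0.49. EIF4B and EIF4H, cofactors of the helicase, had log2 fold changes of 0.11 and 0.02. EIF4H held between 19 and 40 counts per library, and its wide interval ran from 0.447-fold to 2.32-fold. EIF4ENIF1, which carries eIF4E into the nucleus, was at -0.08.

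**Figure D2:**
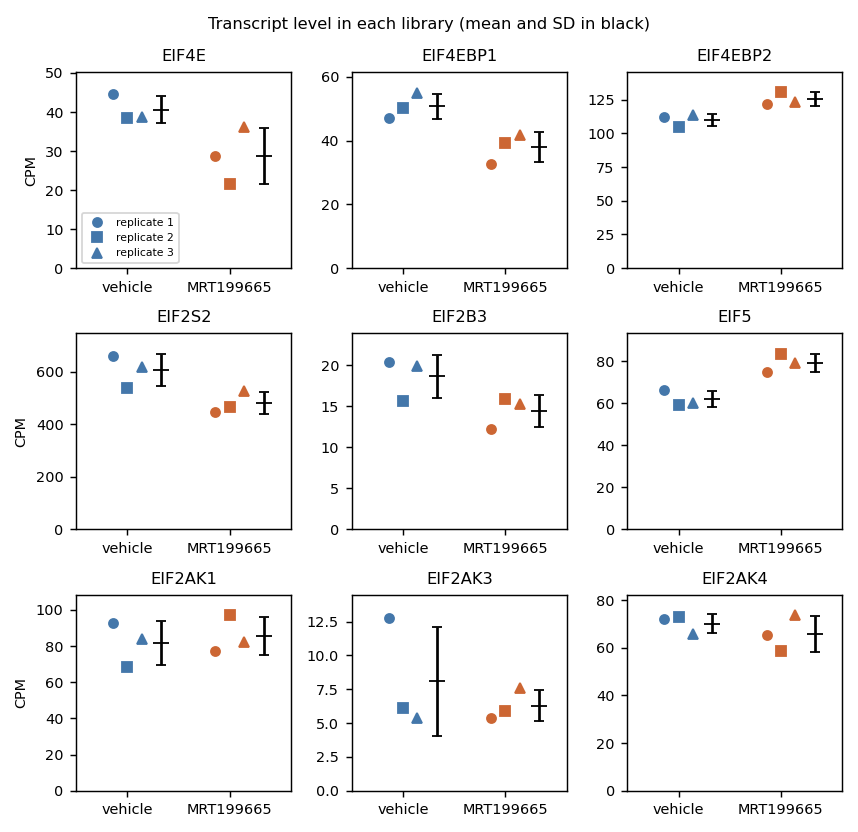
CPM (y axis, from 0) of 9 genes in each library of vehicle (blue) and MRT199665 (orange), with the marker shape giving the replicate number and the mean ± SD of 3 libraries in black. The treated libraries lie below the vehicle libraries for EIF4E, EIF4EBP1 and EIF2S2 and above them for EIF4EBP2 and EIF5, while those of EIF2B3 and the kinases EIF2AK1, EIF2AK3 and EIF2AK4 overlap, and none of the 9 had an adjusted p under 0.05.

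Of the 3 subunits of eIF2, EIF2S2 alone had groups that did not overlap, against 22.2% of all tested genes. With 3 genes, that count does not set the subunits apart. EIF2S2, which encodes the beta subunit, was at 659.6, 539 and 617 CPM in vehicle replicates 1, 2 and 3 and at 448, 464 and 528 CPM in MRT199665 replicates 1, 2 and 3. The groups did not overlap, with MRT199665 replicate 3 just under vehicle replicate 2. The log2 fold change was -0.33 ± 0.13 (SE), which edgeR did not call (adjusted p = 0.274). EIF2S1, the alpha subunit that the kinases phosphorylate, was at 50.2, 43.3 and 43.2 CPM with vehicle and at 42.7, 45.5 and 45.9 CPM with MRT199665. Its groups overlapped, and the 95% interval was 0.816-fold to 1.18-fold. EIF2S3, the gamma subunit that binds the initiator transfer RNA, was at 119 ± 12.2 against 111 ± 3.28 CPM (SD, n = 3 libraries each), with an interval of 0.892-fold to 1.28-fold. EIF2A, an alternative initiator transfer RNA carrier, was at 62.6, 63.9 and 63.7 CPM with vehicle and at 60.9, 53.2 and 54.2 CPM with MRT199665. Its groups did not overlap, although the log2 fold change was -0.17 and the interval stayed within 1.5-fold. EIF2D, another such carrier, was at 15.9 CPM in vehicle replicate 1 and between 3.70 and 5.92 CPM in the other 5 libraries. Its log2 fold change of -0.77 ± 0.48 (SE) turned to 0.07 without that library, the only alternative that turned its sign. EIF2D was called lower by edgeR when no low-count filter was applied (adjusted p = 0.0344) and in no other alternative.

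The genes of eIF2B, the exchange factor of eIF2, went in different directions. EIF2B3 was at 20.4, 15.6 and 19.9 CPM with vehicle and at 12.2, 15.9 and 15.2 CPM with MRT199665, and vehicle replicate 2 lay within the treated range. Its log2 fold change was -0.37 ± 0.17 (SE), with an adjusted p of 0.345 by edgeR. EIF2B4 was at 54.2, 61.7 and 70.8 CPM with vehicle and at 72.9, 77.1 and 74.6 CPM with MRT199665. The treated libraries were all higher, but the vehicle libraries spread more widely than the gap between the groups (log2 fold change 0.27 ± 0.13, SE, edgeR adjusted p = 0.370). EIF2B1, EIF2B2 and EIF2B5 had log2 fold changes of 0.26, -0.19 and -0.01. Summed over the 5 genes, eIF2B stood at 293 ± 29.5 CPM after MRT199665 and at 284 ± 30.8 in vehicle (SD, n = 3 libraries each).

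EIF2AK2, a further eIF2 kinase gene, was left out by the rule. None of the 3 eIF2 kinase genes among the members had groups that did not overlap, against 22.2% of all tested genes. With 3 genes, that count does not set the kinases apart. EIF2AK4, which encodes GCN2, was at 71.9, 72.8 and 65.7 CPM in vehicle replicates 1, 2 and 3 and at 65.3, 58.5 and 73.6 CPM in MRT199665 replicates 1, 2 and 3. The highest library of EIF2AK4 was thus a treated one, and the interval of its fold change was 0.776-fold to 1.14-fold (edgeR adjusted p = 0.792). EIF2AK1, which encodes HRI, was at 92.9, 68.6 and 84.0 CPM with vehicle and at 77.2, 97.2 and 82.2 CPM with MRT199665. Its interval was 0.828-fold to 1.32-fold (edgeR adjusted p = 0.899). The log2 fold changes of EIF2AK1 (0.06) and EIF2AK4 (-0.09) changed sign in some analyses with libraries left out. EIF2AK3, which encodes PERK, was at 12.8, 6.09 and 5.39 CPM with vehicle and at 5.36, 5.92 and 7.58 CPM with MRT199665. The high value was vehicle replicate 1, the same library that was high for EIF2D. The log2 fold change of EIF2AK3 was -0.36 ± 0.33 (SE, edgeR adjusted p = 0.674) and turned to 0.14 without vehicle replicate 1. Its interval, from 0.462-fold to 1.31-fold, was wider than those of the other 2 kinases.

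The eIF3 genes encode the large complex that bridges the small ribosomal subunit and eIF4G. Of the 14 tested rows of this group, 13 were subunit genes and 1 was the antisense RNA EIF3J-AS1. None of the 14 had an unadjusted p under 0.05 or groups that did not overlap, against 14.7% and 22.2% of all tested genes. Their log2 fold changes lay between -0.22 (EIF3D) and 0.37 (EIF3F), and the intervals of 9 stayed within 1.5-fold. EIF3L had the lowest p of the group. It was at 337, 267 and 275 CPM with vehicle and at 299, 412 and 349 CPM with MRT199665 (log2 fold change 0.27 ± 0.15, SE, edgeR adjusted p = 0.473). EIF3D, a subunit that can itself bind the cap of some messenger RNAs, was at 1242, 945 and 959 CPM with vehicle and at 952, 778 and 979 CPM with MRT199665. In both genes libraries of one group fell inside the range of the other. EIF3A, EIF3B, EIF3H, EIF3J and EIF3K, further subunits or associated factors at 240.3 CPM or more in both groups, had log2 fold changes between -0.14 and 0.14. Those of the subunit genes EIF3E, EIF3I, EIF3M and EIF3CL were 0.13, -0.16, 0.13 and -0.21. Summed over the 13 subunit genes, eIF3 stood at 3858 ± 129 CPM after MRT199665 and at 3924 ± 303 in vehicle (SD, n = 3 libraries each).

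EIF5, the GTPase-activating protein of eIF2, had the lowest p among the eIF5 genes and was the only member with a positive fold change at an unadjusted p under 0.05. It was at 66.6, 59.4 and 60.4 CPM in vehicle replicates 1, 2 and 3 and at 74.8, 83.7 and 79.2 CPM in MRT199665 replicates 1, 2 and 3. The groups did not overlap. The log2 fold change was 0.35 ± 0.11 (SE), with an interval of 1.07-fold to 1.51-fold, and edgeR did not call it (adjusted p = 0.180). In the 15 alternatives its log2 fold change stayed between 0.27 and 0.40, with an adjusted p between 0.165 and 0.593. EIF5B, the GTPase of ribosomal subunit joining, was at 547 ± 27.9 against 589 ± 49.9 CPM (SD, n = 3 libraries each), within 1.5-fold. EIF5A encodes a factor that carries the amino acid hypusine and relieves stalled ribosomes. It was at 19.0, 12.1 and 17.9 CPM with vehicle and at 14.7, 33.1 and 24.9 CPM with MRT199665, with overlapping groups. Its paralogue EIF5A2 was at 5.54, 6.86 and 6.01 CPM with vehicle and at 4.15, 4.06 and 5.32 CPM with MRT199665. These did not overlap, but the log2 fold change of -0.43 ± 0.20 (SE) was not called by edgeR (adjusted p = 0.367).

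The proteins eIF1 and eIF1A keep the small ribosomal subunit open for scanning. EIF1 was at 867 ± 9.04 CPM after MRT199665 and at 929 ± 84.9 in vehicle (SD, n = 3 libraries each), and the interval was 0.773-fold to 1.13-fold. EIF1AX, which encodes eIF1A, and EIF1B, a homologue of EIF1, had log2 fold changes of 0.26 and 0.09 with overlapping groups. EIF1AY, a copy of EIF1AX on the Y chromosome, had the lowest p of all members, with a log2 fold change of -0.49 ± 0.13 (SE, edgeR adjusted p = 0.123). Its adjusted p in the alternatives lay between 0.0533 and 0.488. EIF1AD, which encodes a protein with an eIF1A-like domain, was at 2.77, 3.95 and 2.95 CPM with vehicle and at 2.42, 1.86 and 1.77 CPM with MRT199665, from between 11 and 46 counts per library. Its groups did not overlap, and the log2 fold change of -0.66 ± 0.27 (SE) was not called (edgeR adjusted p = 0.295). EIF6, which keeps the large ribosomal subunit from joining too early, was at 209, 240.2 and 205 CPM with vehicle and at 209, 192 and 230.1 CPM with MRT199665. Its groups overlapped, and the log2 fold change of -0.05 had an adjusted p of 0.895 by edgeR and changed sign in some analyses with libraries left out.

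The library with the highest or lowest level varied among the members. MRT199665 replicate 2 was the highest library for 18 of the 49 members (36.7%), against 24.8% of all tested genes, and vehicle replicate 1 for 13 (26.5%, against 17.5%). For 18 members (36.7%) MRT199665 replicate 2 was the highest treated library and vehicle replicate 1 the highest vehicle library, as was so for 22.4% of all tested genes. The remaining members did not have this order, and MRT199665 replicate 2 was the lowest library for 11 members (22.4%), against 23.9% of all tested genes. Vehicle replicate 2 was the lowest for 15 (30.6%, against 21.3%). EIF3G, a subunit of eIF3, had MRT199665 replicate 2 and vehicle replicate 1 as the highest of their groups, at 20.3, 12.7 and 19.1 CPM with vehicle and 14.3, 35.0 and 14.6 CPM with MRT199665. EIF5AL1, a copy of EIF5A, had them as the lowest, at 2.52, 7.12 and 4.68 CPM with vehicle and 6.12, 1.01 and 3.83 CPM with MRT199665. The widest ranges over the 6 libraries were 7.02-fold for EIF5AL1, 4.96-fold for EIF4A3 and 4.29-fold for EIF2D. Of the 10 members with the widest ranges, EIF4A3, EIF4H, EIF3G, EIF5A, EIF3F and EIF2B1 were highest in MRT199665 replicate 2. The part of depth or RNA quality in these orders was not tested.

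**Figure D3:**
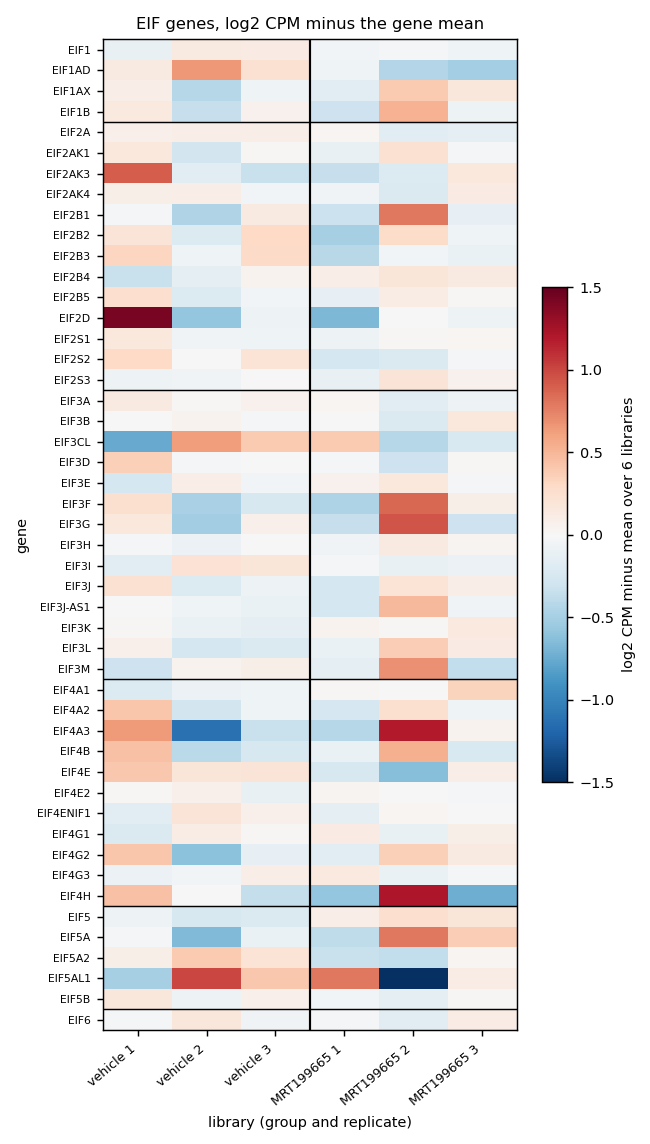
Log2 CPM minus the gene's mean over the 6 libraries (colour) for 48 of the 49 tested EIF genes (rows, by factor number), with libraries in columns and EIF1AY left out. Red and blue do not separate at the line between the groups, and MRT199665 replicate 2 and vehicle replicate 1 hold many of the dark red cells, such as EIF4A3 at 39.6 and 27.0 CPM.

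Several members have close copies, so their counts are uncertain. In 50-base windows over the last 300 bases of GENCODE 29 transcripts, 100% of the windows of EIF3C and 99.2% of those of EIF3CL occurred in the transcripts of the other. EIF3C, a core subunit gene, held between 3 and 13 counts per library, while the subunit gene EIF3B held at least 1817. For EIF4A1, 91.0% of the windows occurred in other genes, among them pseudogenes and the readthrough gene SENP3-EIF4A1, whose own row held 0 counts in all 6 libraries. The share was 68.3% for EIF3L, 41.3% for EIF5A (with EIF5AL1 among the others), 41.2% for EIF4B, 25.4% for EIF3F and 19.0% for EIF4E. In all, 17 of 54 genes examined, EIF4EBP1 and EIF4EBP2 among them without any, shared at least 1 window. How reads matching several genes were counted is not stated in the labels. Of the 51 pseudogene rows, 29 had a count and 7 were tested, of which edgeR called 0. A 0 in this table need not mean an absent transcript, since EEF1G, an elongation factor gene that dividing cells use, was also listed at 0 in all libraries.

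The other genes of translation control were taken from a list of 47, of which 42 were tested. EdgeR called none of the 42 at an adjusted p under 0.05. An unadjusted p under 0.05 was reached by 6 (14.3%, as against 14.7% of all tested genes), and the groups did not overlap for 11, 3 higher and 8 lower (26.2%, against 22.2%). The median log2 fold change of the list was -0.016. DESeq2 called 1 of the genes lower, PPP1R15A, and limma-voom called none. Over the whole table DESeq2 called 355 of 12356 genes, so 1 call among the list does not set it apart.

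PPP1R15A encodes GADD34, the stress-induced subunit that directs a phosphatase to eIF2, and it is itself a target of the ATF4 pathway. It was at 32.2, 27.9 and 26.6 CPM in vehicle replicates 1, 2 and 3 and at 20.2, 19.1 and 17.5 CPM in MRT199665 replicates 1, 2 and 3. The groups stood clearly apart. The log2 fold change was -0.61 ± 0.13 (SE), 1.53-fold lower with MRT199665, and had an adjusted p of 0.0804 by edgeR and 0.0263 by DESeq2. It was lower in all 15 alternatives, with an adjusted p between 0.0208 and 0.389. PPP1R15B, the constitutive counterpart, had a log2 fold change of 0.02, with 21.8 ± 1.77 against 21.6 ± 1.40 CPM (SD, n = 3 libraries each). Of the catalytic subunits, PPP1CC was at 228 ± 10.3 against 270.5 ± 12.1 CPM (SD, n = 3 libraries each), a log2 fold change of -0.25 (edgeR adjusted p = 0.325). PPP1CA was at 12.8 CPM in MRT199665 replicate 2 and between 0.755 and 2.10 CPM in the other libraries, so its log2 fold change of 1.75 had an SE of 1.05 and was -0.71 at its lowest in the alternatives. GCN1L1 and IMPACT, an activator and an inhibitor of GCN2, were at -0.04 and 0.07 on the log2 scale, and DNAJC3, an inhibitor of eIF2 kinases, was at 0.11.

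The eIF4E-binding proteins hold eIF4E away from eIF4G until mTOR phosphorylates them. EIF4EBP1 was at 47.1, 50.2 and 54.9 CPM in vehicle replicates 1, 2 and 3 and at 32.8, 39.2 and 41.9 CPM in MRT199665 replicates 1, 2 and 3, with no overlap (log2 fold change -0.42 ± 0.13, SE, edgeR adjusted p = 0.189). EIF4EBP2 was at 112, 105 and 113 CPM with vehicle and at 121, 131 and 123 CPM with MRT199665, with no overlap in the opposite direction (log2 fold change 0.19 ± 0.10, SE, edgeR adjusted p = 0.451). Neither was called, and EIF4EBP3 was listed at 0. The ratio of EIF4EBP2 to EIF4EBP1 counts within a library, chosen after the values were seen, was 2.38, 2.09 and 2.06 with vehicle and 3.71, 3.34 and 2.94 with MRT199665. Since these genes already differed in opposite directions without overlap, the ratio is a description and has no test. The ratio of EIF4EBP1 to EIF4E, also chosen after the values were seen, was 1.37 ± 0.382 after MRT199665 and 1.26 ± 0.183 in vehicle (SD, n = 3 libraries each). A further ratio, EIF4EBP2 to EIF4E, was 2.52, 2.72 and 2.92 with vehicle and 4.23, 6.05 and 3.42 with MRT199665. Its genes also differed in opposite directions without overlap, so it too is a description without a test.

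Of the remaining roles, DDX3X, a helicase that helps scanning through structured leaders, was at 55.5, 54.7 and 57.6 CPM with vehicle and 64.3, 73.4 and 67.7 CPM with MRT199665 (log2 fold change 0.29 ± 0.11, SE, edgeR adjusted p = 0.259). MTIF2, a mitochondrial initiation factor, was at 97.6, 96.6 and 91.6 CPM with vehicle and at 87.4, 67.6 and 71.4 CPM with MRT199665 (log2 fold change -0.33 ± 0.13, SE, edgeR adjusted p = 0.265). In both genes the groups did not overlap. RPTOR, a subunit of the mTOR complex that phosphorylates the eIF4E-binding proteins, was at 3.25 ± 0.116 against 4.60 ± 0.784 CPM (SD, n = 3 libraries each). Its log2 fold change was -0.51 ± 0.22 (SE, edgeR adjusted p = 0.322). MTOR itself was at 0.02, with an interval of 0.632-fold to 1.62-fold. Of the 2 genes with the lowest p in each further role, edgeR called none, and those with negative log2 fold changes included MCTS1 (-0.27, ribosome recycling and reinitiation), GIGYF2 (-0.16, a partner of EIF4E2), the release factor genes GSPT1 (-0.26) and ETF1 (-0.16), EEF1E1 (-0.37, a part of the aminoacyl-tRNA synthetase complex) and DOHH (-0.20, a hypusine enzyme). Among those with positive ones were the poly(A)-binding PABPC4 (0.25), the elongation factor EEF1A1 (0.12) and the hypusine enzyme DHPS (0.22). EEF1A1 stood at only 22.3 CPM with vehicle, against 4582 CPM for the elongation factor EEF2. Whether the counts of EEF1A1 are complete was not tested. The poly(A)-binding PABPC1, the mitochondrial factor MTIF3 and the eIF2 assembly factor CDC123 were at -0.10, -0.04 and -0.0006. For ETF1, DOHH, DHPS, PABPC1, MTIF3 and CDC123 the sign changed in some analyses with libraries left out.

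**Figure D4:**
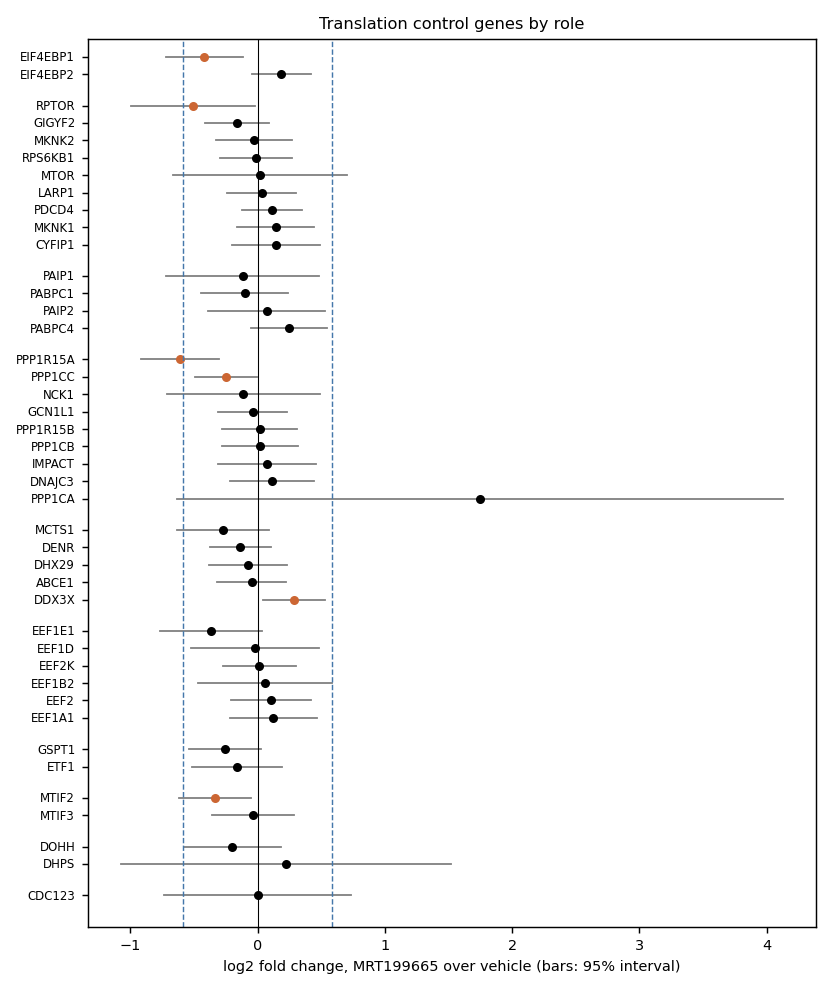
Log2 fold change of the 42 tested translation control genes, MRT199665 over vehicle (x axis), with 95% intervals (bars), grouped by role from the eIF4E-binding proteins (top) to eIF2 assembly. Orange points have an unadjusted p under 0.05, dashed lines mark 1.5-fold in either direction, and the long bar of PPP1CA goes with its value of 12.8 CPM in MRT199665 replicate 2.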

How the data were processed

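The authors deposited whole-number counts per gene symbol for 6 libraries, not normalized. Tools named in the submitters' processing notes were STAR (version 2.4), HTSeq (version 0.6.1) and DESeq2, and the build was hg19. The annotation, the strand setting and the treatment of reads with several matches are not given in the sources used here. Groups and replicate numbers came from the labels.

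The test was edgeR's quasi-likelihood test (edgeR 4.0.16, R 4.3.3, TMM scaling, glmQLFit and glmQLFTest, group as the only term) after filterByExpr (minimum count 10, minimum total 15), which left 13053 of 55765 rows. Calls used a Benjamini-Hochberg adjusted p under 0.05 over all tested genes, two-sided. The SE was the size of the log2 fold change divided by the square root of F, and the 95% interval used the test's degrees of freedom. CPM used TMM-scaled totals, except for cell type markers (unscaled). CPM from 3′ ends is not divided by length.

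The members and lists were chosen with earlier results of these data known. The rule named the 2 members with the lowest p of each factor number, the eIF2 kinases, the eIF4E-binding proteins and the 2 list genes with the lowest p of each role. Some of the list genes are given by their mean or fold change only. Others named, such as EIF2D, EIF4A3 and the members without overlap, were chosen after their values were seen. Levels of EIF1AY per library and some cell type markers are not reported here. Alternatives were 3 other scalings, 2 other low-count filters, DESeq2 1.42.0, limma-voom (limma 3.58.1), a replicate block, and leaving out libraries. Counts of libraries of the same group differed beyond sampling noise (chi-square over its degrees of freedom at least 8.59), so each counted as a library of its own.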

Additional observations from a re-analysis of the deposited data

How the results depend on the processing

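No alternative called a member, apart from EIF2D, called lower without a low-count filter (1 member lower, adjusted p = 0.0344). That filter also gave 1 higher (PPP1CA) and 1 lower (PPP1R15A) gene of the translation control list, and DESeq2 gave 1 lower (PPP1R15A). The log2 fold change of PPP1R15A was -0.63 both without the filter and with DESeq2. Over all genes, 163 calls became 644 without the filter, 355 with DESeq2 and 12 with the replicate number as a block, and between 49 (without vehicle replicate 3) and 137 (without both MRT199665 replicate 2 and vehicle replicate 2) when libraries were left out. The share of calls that were higher, 68.1%, was 57.9% without the filter, 56.6% with DESeq2 and 58.3% with the block. The members' median log2 fold change, 0.013, lay between -0.075 (without MRT199665 replicate 2) and 0.058 (without vehicle replicate 1) with 1 library left out. It was -0.13 without both MRT199665 replicate 2 and vehicle replicate 2, the ends of the first principal component. The median over all tested genes moved little, to -0.0076 without MRT199665 replicate 2 and to -0.0057 without both. How close the members' median lay to that of all genes thus depended on the libraries used. The cause was not tested.

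Of the genes named by the rule, signs turned for those with small or uneven differences. With 1 library or with both ends of the component left out, the log2 fold change ranged from -0.58 to 0.33 for CDC123, -0.78 to 0.84 for DHPS, -0.30 to 0.064 for DOHH, -0.15 to 0.16 for EIF2AK1, -0.58 to 0.14 for EIF2AK3, -0.19 to 0.0099 for EIF2AK4, -0.14 to 0.080 for EIF6, -0.31 to 0.015 for ETF1, -0.10 to 0.044 for MTIF3 and -0.17 to 0.042 for PABPC1. CDC123 was 0.0092 with upper-quartile scaling and 0.0033 with the replicate block. Many members outside the rule also changed sign, among them EIF4H in 8 of the 15 alternatives. EIF2B5, EIF3J and EIF4E2 did so in 5 each, while EIF4E, EIF2S2 and EIF5 kept their sign.

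Same-numbered libraries did not deviate together (correlations of -0.547, -0.467 and 0.018 for numbers 1, 2 and 3). Deviations were taken from the mean of the 3 libraries of each group, so these correlations depend on one another. A pairing by culture could go unseen, and the check does not exclude it. Among other combinations vehicle replicate 1 with MRT199665 replicate 2 (0.482) and vehicle replicate 2 with MRT199665 replicate 1 (0.53) had the highest correlations. The block called no member. Counting EIF4EBP1, EIF4EBP2 and EIF4EBP3 as members changed no call. The lowest depth, 5871097 counts, limits genes at few CPM.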
